A study of Mus musculus with 39 samples.

Results

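The 6 genes described here encode the MYC family and its closest partners: the paralogs *Mycn*, *Myc* and *Mycl*, their shared dimerisation partner *Max*, and the MAX-binding repressors *Mga* and *Mnt*. They were taken by symbol from the deposited gene counts, where each symbol had 1 row, so they make up 6 of 47643 genes. Bulk RNA-seq was read from single mouse epiblasts on the CD1 background that were *Stat3* null or wild type (WT), at embryonic day (E) 5.5 (2 WT, 4 null), E6.5 (9 WT, 8 null) and E7.5 (9 WT, 3 null). It was also read from epiblast stem cell (EpiSC) lines, 2 null and 2 WT, kept in N2B27 medium with FGF2, Activin A and the tankyrase inhibitor XAV-939. The null allele was carried from conception in every cell, with several exons replaced by a neomycin resistance gene, and the embryos came from intercrosses of heterozygous mice. Extraembryonic ectoderm and visceral endoderm had been stripped from the epiblasts by hand. The EpiSC lines were derived from epiblasts of such crosses, and each line is 1 library. The comparisons ask whether the pace at which these genes change between stages, and their level at a stage, differ with genotype.

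MYC proteins are basic helix-loop-helix leucine zipper factors that bind E-box DNA as dimers with MAX and raise transcription of genes for ribosome production, nucleotide synthesis and growth. MNT, the MXD proteins and MGA also dimerise with MAX, occupy E-boxes and recruit repressors, so that the balance of these partners sets the output of the network. MGA in addition carries a T-box domain and is the DNA-binding scaffold of the Polycomb complex PRC1.6, which silences germline genes in pluripotent cells. In the early embryo MYC and MYCN act in cell competition, growth and the exit from diapause, and in naive embryonic stem cells *Myc* is a classical target of STAT3.

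In GRCm38 with GENCODE vM21 annotation, *Mycn* (ENSMUSG00000037169.14) lies on chromosome 12 at 12936093 to 12941914 on the minus strand. *Myc* (ENSMUSG00000022346.14) lies on chromosome 15 at 61985391 to 61990374, and *Mycl* (ENSMUSG00000028654.13) on chromosome 4 at 122995652 to 123002485, both on the plus strand. *Max* (ENSMUSG00000059436.12) lies on chromosome 12 at 76937269 to 76962201 on the minus strand, *Mga* (ENSMUSG00000033943.15) on chromosome 2 at 119897228 to 119969581 and *Mnt* (ENSMUSG00000000282.12) on chromosome 11 at 74830920 to 74845725, the latter pair on the plus strand. *Mnt* is on the chromosome of *Stat3*, with starts 26.1 Mb apart. No transcript of another gene matched a transcript of these 6 at 95% identity over at least 50% of its length and 200 bases, and no exon of another gene overlapped theirs.

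Promoter sequence, as RefSeq on GRCm38.p6 gives it, was at hand for 5 of the 6 genes, all but *Myc*. The 250 bases before the start were searched on both strands for the E-box CACGTG, the STAT motif TTCNNNGAA and the TATA box TATAAA, and for TTTGGCGC, an E2F-type motif that was added after the *Mycn* sequence had been read. The STAT motif was in none of the 5 windows and in 7.02% of 32851 promoters. TTTGGCGC occurred at 2 places in the *Mycn* window and in 0.417% of promoters, the E-box at 1 place in the *Mnt* window, 123 bases before the start, and in 6.02% of promoters, and the TATA box at 1 place in the *Mycl* window, 8 bases before the start, and in 12.4% of promoters. The *Max* and *Mga* windows held none of these motifs. The *Mycl* window (chr4:122995681-122995930) lies before the RefSeq start but wholly inside the gene as GENCODE annotates it. The *Mycn* and *Mnt* stretches that lie outside the annotated gene are shown because *Mycn* was the most abundant paralog and *Mnt* is the member with the dimers' own E-box. Capitals mark the E2F-type motifs of *Mycn* (chr12:12941915-12942086, minus strand) and the E-box of *Mnt* (chr11:74830674-74830919, plus strand). A match is only a match of letters.
Mycn: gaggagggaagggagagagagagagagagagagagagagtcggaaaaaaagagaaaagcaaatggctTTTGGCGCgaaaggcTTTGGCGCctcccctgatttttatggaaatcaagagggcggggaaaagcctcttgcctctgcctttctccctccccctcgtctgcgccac
Mnt: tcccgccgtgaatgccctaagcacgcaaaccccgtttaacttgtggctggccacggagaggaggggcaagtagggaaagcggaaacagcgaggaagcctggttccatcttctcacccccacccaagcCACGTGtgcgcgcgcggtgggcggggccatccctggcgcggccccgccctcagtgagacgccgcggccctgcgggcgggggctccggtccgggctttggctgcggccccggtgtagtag

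Total counts lay between 22941210 and 79013960 in the 35 epiblast libraries and between 63445877 and 127583699 in the 4 EpiSC libraries. *Stat3*, the targeted gene, lay at 9.33 to 22.7 CPM (counts scaled to a common library size) in the E5.5 null and 39.2 to 51.1 in the E5.5 WT epiblasts, at 1.43 to 8.10 and 5.66 to 28.9 at E6.5, where the groups overlap, at 1.22 to 1.496 and 4.63 to 24.3 at E7.5, and at 3.14 to 3.52 and 18.1 to 22.9 in EpiSCs. Reads on the exons that the null allele keeps are still counted. Of the 6 epiblast markers read here (*Pou5f1*, *Nanog*, *Sox2*, *Utf1*, *Otx2* and *Fgf5*), *Nanog*, *Otx2* and *Fgf5* were at 0 in 1 of the 4 E5.5 null libraries each, and none was at 0 in another group. E5.5 null 1 had a summed epiblast marker level of 174 CPM against 451 to 845 in the other E5.5 libraries, extraembryonic ectoderm markers at 906 CPM against 33.4 to 309.7, and visceral endoderm markers at 26.7 CPM against 5125 to 10531. E7.5 WT 3 stood apart from the other 8 E7.5 WT libraries, with epiblast markers at 1296 CPM against 279.6 to 611, and is given below with each result that rests on it.

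From E5.5 to E6.5 the WT level of *Mycn* rose, and from E6.5 to E7.5 all 3 paralogs and *Mga* fell. *Mycn*, the paralog known for its role in neural and early embryonic progenitors, was at 181 and 192 CPM in the 2 E5.5 WT epiblasts and at 182 to 376 (median 312) in the 9 E6.5 WT epiblasts. Of the latter, 8 were above both E5.5 libraries. The change was 0.70 ± 0.20 on the log2 scale (± SE; edgeR quasi-likelihood test, adjusted p = 0.0431), in a comparison in which 9.24% of 20763 genes passed an adjusted p of 0.05. This was the 1 member to pass, and it no longer passed with other size factors (adjusted p = 0.0540), with a filter on a mean count of 50 (0.0527), without genes over 1% of counts (0.0531) or without 10 of the 11 libraries in turn (0.0586 to 0.313). The two-sided exact permutation p of *Mycn* was 0.0727, where 0.0364 is the smallest that 9 against 2 libraries allow. DESeq2 passed *Mycn* (adjusted p = 0.0112) and *Mycl* (0.0468), and voom *Mycn* (0.00935) and *Myc* (0.0274). *Myc* was at 23.3 and 69.6 CPM at E5.5 and at 48.0 to 84.1 (median 72.6) at E6.5, a difference of 0.64 ± 0.30 (edgeR, adjusted p = 0.226). The higher E5.5 library lies within the E6.5 range and the lower below it. Without E5.5 WT 1 the difference was 1.595 (adjusted p = 0.0264), and without E5.5 WT 2 it was 0.019. *Mycl*, a less studied paralog that is expressed in epithelia and the nervous system, was at 32.0 and 46.9 CPM at E5.5 and at 45.1 to 83.0 (median 64.96) at E6.5, a difference of 0.73 ± 0.25 (adjusted p = 0.0829). Between these stages the summed visceral endoderm markers went from 5125 and 6420 CPM to a median of 154 CPM (45.5 to 5164), and the epiblast markers from 598 and 845 to 1113 to 1356 CPM. Their part in the change of *Mycn* was not tested.

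At E7.5 the same genes were lower in WT. *Myc* was at 9.73 to 50.4 CPM (median 22.7) in the 9 E7.5 WT epiblasts, and 8 of them were below every E6.5 WT epiblast, the exception being E7.5 WT 3 at 50.4 CPM. The fall was 1.51 on the log2 scale (SE 0.227), or 2.85-fold (edgeR, adjusted p = 9.8e-05). *Mycl* was at 22.01 to 62.6 CPM (median 29.3), again with 8 libraries below all of E6.5 WT and E7.5 WT 3 above them, and fell by 0.90 (SE 0.190, adjusted p = 0.00163). *Mycn* was at 180.1 to 300.3 CPM (median 210.3), a range that overlaps that of E6.5, and fell by 0.43 (SE 0.111, adjusted p = 0.00675). In this comparison 24.9% of 17191 genes passed, 12.3% as lower and 12.7% as higher, and 4 of the 6 members passed, all of them lower. In bulk samples fewer cells of a type that expresses a gene and less RNA of it per cell cannot be told apart. The summed level of visceral endoderm markers was 368 to 3959.8 CPM (median 1505) at E7.5 and 45.5 to 5164 (median 154) at E6.5. That of neuroectoderm markers was 7.62 to 77.2 (median 33.5) and 0.640 to 19.0 (median 4.13). Epiblast markers summed to 506 ± 318 CPM (SD, n = 9) at E7.5 and 1243 ± 69.5 at E6.5, and extraembryonic ectoderm markers to 68.2 ± 33.9 and 8.14 ± 5.59 CPM. Their part in these changes was not tested.

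*Max*, the obligate partner, had the smallest log2 differences of the 6 genes at both WT steps. It was at 54.1 and 55.3 CPM at E5.5, 44.6 to 65.9 (median 52.4) at E6.5 and 37.4 to 52.9 (median 43.1) at E7.5 in WT, and neither step passed (log2 difference -0.014 ± 0.15, adjusted p = 0.977, and -0.21 ± 0.090, adjusted p = 0.1005). *Mga* was at 344 and 374 CPM at E5.5, 341 to 459.9 (median 371) at E6.5 and 240.1 to 344.5 (median 271) at E7.5. It did not pass at the first step (0.11 ± 0.098, adjusted p = 0.549) and fell by 0.41 at the second (SE 0.0687, adjusted p = 0.000202), where 8 of the 9 E7.5 libraries were below all E6.5 libraries. *Mnt*, the constitutive antagonist of MYC for MAX and E-boxes, was at 39.9 and 45.7 CPM at E5.5, 31.3 to 58.9 (median 49.2) at E6.5 and 30.7 to 49.1 (median 40.5) at E7.5, and neither step passed (0.20 ± 0.20, adjusted p = 0.606, and -0.26 ± 0.11, adjusted p = 0.0806). Without E6.5 WT 3, the lowest E6.5 WT library in *Mnt*, *Myc* and *Mycn*, the second step of *Mnt* was -0.33 (adjusted p = 0.00942), and without E7.5 WT 3 it was -0.30 (adjusted p = 0.0412).

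**Figure D1:**
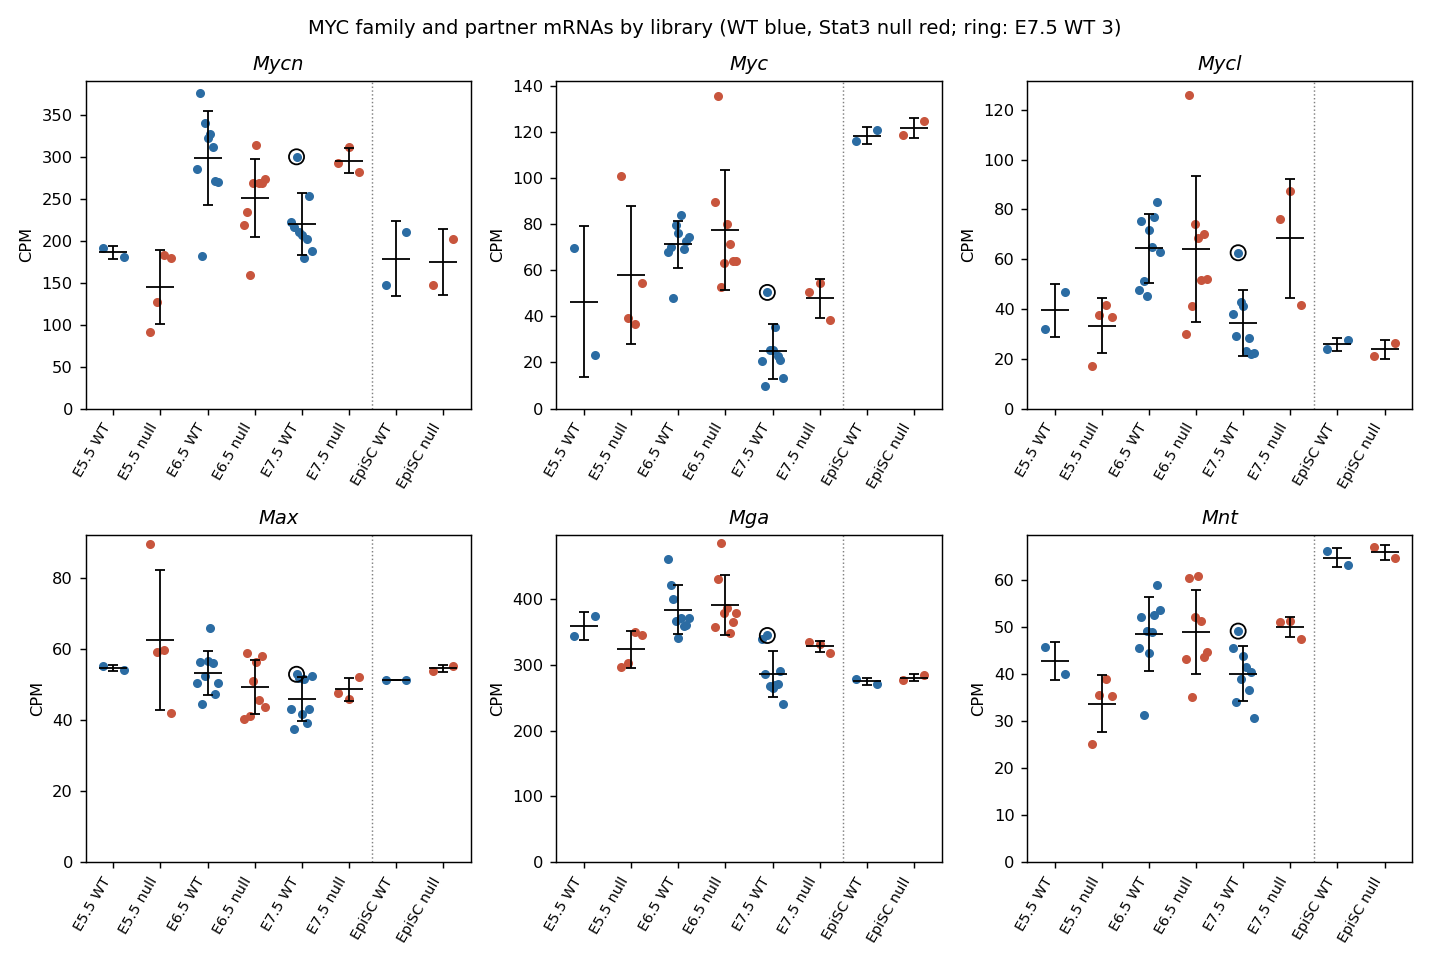
CPM of the 6 genes (vertical axes from 0) in each of the 39 libraries, by group, with the mean and SD as bars; WT is blue, null red, the ring marks E7.5 WT 3, and the dotted line separates EpiSCs, which were prepared and normalised separately. In *Myc*, *Mycn* and *Mycl* the E7.5 WT libraries lie below most E6.5 libraries except E7.5 WT 3, which lies among the 3 E7.5 null libraries.

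Per kilobase of exon, *Mycn* was the most abundant of the paralogs in every group mean. As a description of WT means, *Mycn* was at 56.6, 90.7 and 66.8 CPM per kb in the order of the stages, *Myc* at 17.1, 26.3 and 9.14, *Mycl* at 9.77, 15.9 and 8.51, *Mga* at 23.4, 25.0 and 18.6, *Max* at 15.2, 14.8 and 12.8, and *Mnt* at 9.25, 10.5 and 8.66. *Mycn* thus took 63.5% and 73.1% of the summed paralog level in the E5.5 WT libraries, 68.0% ± 3.02 (SD, n = 9) in E6.5 WT, 79.5% ± 4.90 (n = 9) in E7.5 WT and 72.5% ± 4.61 (n = 3) in the nulls of E7.5. The only epiblast library in which *Myc* took the larger share, 53.9%, was E5.5 null 1, the library with few epiblast markers. The ratio of *Mycn* to *Myc* was 3.45 ± 0.438 in E6.5 WT and 8.78 ± 4.29 in E7.5 WT, where it ran from 4.22 to 18.3, and 4.73 to 6.06 in the 3 E7.5 null epiblasts. The summed paralog level was 133 ± 21.0 CPM per kb in E6.5 WT, 84.5 ± 16.7 in E7.5 WT and 124 ± 13.2 in the nulls of E7.5, and over the level of *Max* it was 8.96 ± 1.01, 6.69 ± 1.25 and 9.26 ± 1.55. In E7.5 WT 3 the summed level was 125 CPM per kb, within the null range of 110 to 136, and in the other 8 WT libraries it was 67.4 to 90.0. These shares, ratios and sums were not tested.

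**Figure D2:**
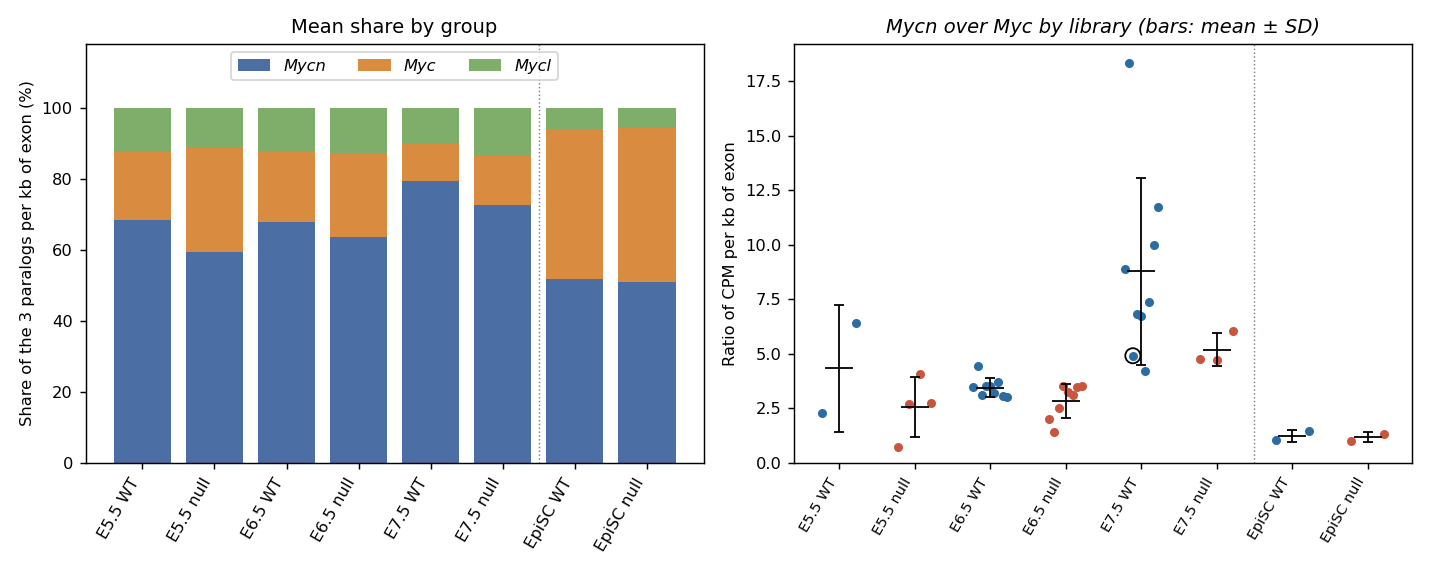
Left, the mean share of *Mycn*, *Myc* and *Mycl* in their summed CPM per kb of exon (%), stacked by group; right, the ratio of *Mycn* to *Myc* per kb in each library, with mean and SD (ring, E7.5 WT 3). The *Mycn* share is highest in E7.5 WT, at 79.5%, and near 51% in EpiSCs, where the ratio is 1.02 to 1.43.

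Between genotypes, the clearest differences in level were at E7.5. There all 6 genes had a higher mean in the null epiblasts, but none passed in edgeR with all libraries in the test. *Myc* was at 50.6, 54.4 and 38.4 CPM in the 3 null epiblasts. In WT it was at 20.7, 9.73, 50.4, 25.3, 25.4, 35.2, 22.7, 20.9 and 13.2 CPM. The null values lie above 8 of the 9 WT values and WT 3 lies within them. The log2 difference, null over WT, was 0.96 ± 0.36 (edgeR, adjusted p = 0.152). *Mycn* was at 293, 312 and 282 CPM in null and at 180.1 to 300.3 (median 210.3) in WT, with WT 3 again the highest, a difference of 0.44 ± 0.12 (adjusted p = 0.0613). *Mycl* was at 76.2, 87.5 and 41.6 CPM in null and 22.01 to 62.6 (median 29.3) in WT, a difference of 1.01 ± 0.30 (adjusted p = 0.0886). Here null 3 lay within the WT range.

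The other partners differed less. *Mnt* was at 51.0, 51.2 and 47.5 CPM in null and 30.7 to 49.1 (median 40.5) in WT (0.33 ± 0.12, adjusted p = 0.144). *Mga* was at 334, 331 and 319 CPM in null and 240.1 to 344.5 (median 271) in WT (0.21 ± 0.095, adjusted p = 0.223). *Max* was at 47.7, 46.0 and 52.2 CPM in null, within the WT range of 37.4 to 52.9 (0.10 ± 0.12, adjusted p = 0.758). Of all genes 2.11% passed. Of the 6 members 5 had an unadjusted p under 0.05 in edgeR, as did 19.7% of all genes. In DESeq2 2 passed (*Mycn* and *Mycl*), with 9.72% of 18836 genes, and in voom with sample quality weights 5, all but *Max*, with 17.9% of 19680 genes. Two-sided exact permutation tests of log2 CPM gave p = 0.0182 for *Myc* and *Mnt*, 0.0273 for *Mycn* and *Mycl*, 0.0909 for *Mga* and 0.5 for *Max*, where 0.00909 is the smallest p that 3 against 9 libraries allow.

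In edgeR the count turned on a single library, and with all libraries kept it also differed between the tests, as given above. Without E7.5 WT 3, 5 of the 6 members passed, all higher in null, while 14.4% of all genes passed, 7.06% as higher. The log2 differences were then 1.16 ± 0.27 for *Myc* (adjusted p = 0.00999), 0.51 ± 0.083 for *Mycn* (0.000724), 1.17 ± 0.24 for *Mycl* (0.00443), 0.38 ± 0.11 for *Mnt* (0.0369) and 0.25 ± 0.079 for *Mga* (0.0444), and 0.13 ± 0.12 for *Max* (0.591), each an edgeR value with its adjusted p. *Myc*, *Mycn* and *Mnt* then did not overlap between the genotypes, as 7.09% of genes were higher without overlap. E7.5 WT 3 was left out with these results known. It was the highest WT library in *Myc* and *Mycn*, so leaving it out favours both the passing and the gap. With all libraries kept, 2, 1 and 2 of the 3 null values of *Myc*, *Mycn* and *Mnt* lay above every WT value. In the tissue markers E7.5 WT 3 also lay near the null epiblasts. Epiblast markers summed to 971 to 1376 CPM in the nulls, 1296 in WT 3 and 279.6 to 611 in the other 8 WT libraries, visceral endoderm markers to 35.9 to 236, 368 and 633 to 3959.8 CPM, extraembryonic ectoderm markers to 4.09 to 16.9, 3.09 and 33.8 to 104 CPM, and neuroectoderm markers to 8.25 to 9.84, 7.62 and 26.3 to 77.2 CPM. Primitive streak and mesoderm markers summed to 469 to 734, 265 and 142 to 401 CPM. All 8 visceral endoderm markers had counts in every E7.5 library, and 5 of the 7 extraembryonic ectoderm markers were at 0 in at least 1 null library. Depth moved the same way, with totals of 37143484 to 41655234 counts in the nulls, 39477197 in WT 3 and 25793920 to 36002498 in the others. The part of tissue composition and of depth in these differences was not tested.

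**Figure D3:**
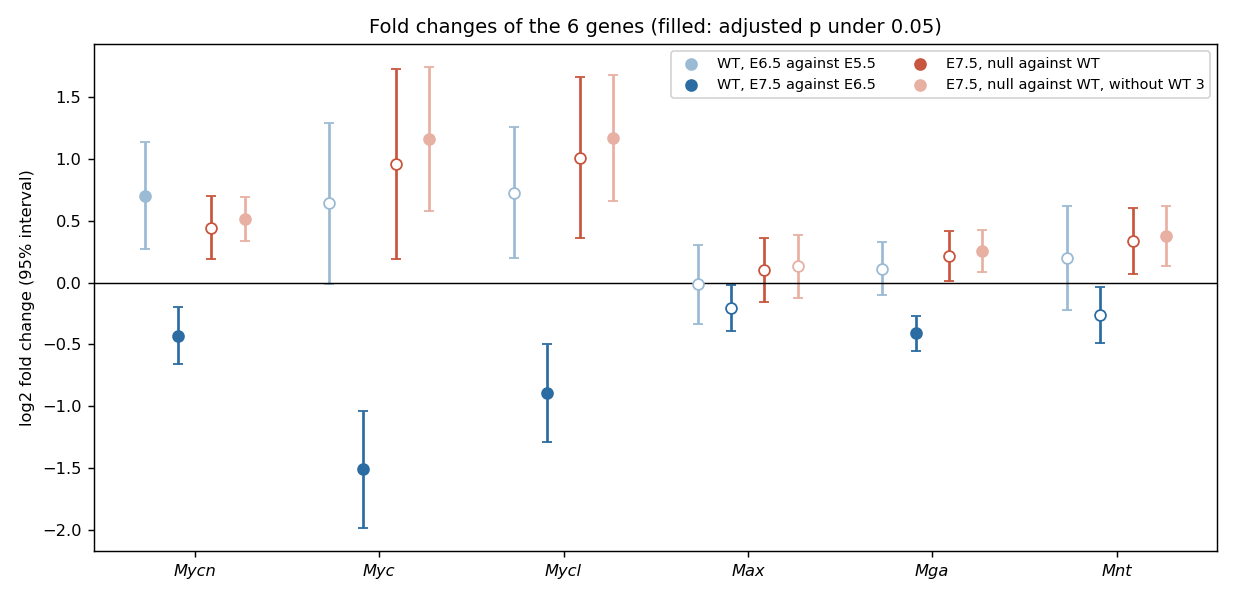
Log2 fold change of each gene with its 95% interval in WT E6.5 against E5.5, WT E7.5 against E6.5, and E7.5 null against WT with and without E7.5 WT 3; filled points have an adjusted p under 0.05. In WT, *Myc*, *Mycn*, *Mycl* and *Mga* lie below 0 at the second step, and 5 of the 6 null against WT values are filled only without E7.5 WT 3; the second step and the genotype comparison share the E7.5 WT libraries.

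Set against the younger WT epiblasts, the E7.5 nulls did not differ detectably in most members. Against E6.5 WT, *Mycn* differed by -0.0077 ± 0.15, *Mycl* by 0.095 ± 0.22, *Mnt* by 0.049 ± 0.15 and *Max* by -0.13 ± 0.12 on the log2 scale, all with adjusted p of 0.884 or more in edgeR. *Myc* was lower in the nulls by a log2 difference of -0.57 ± 0.15 (adjusted p = 0.167), and *Mga* by -0.22 ± 0.077 (adjusted p = 0.368), with all 3 null values of *Mga* below the lowest E6.5 WT value of 341 CPM, as 1.96% of genes were lower without overlap. In this comparison 0.243% of genes passed. None of the 6 members did in edgeR, and 2 had an unadjusted p under 0.05, as did 8.87% of genes. *Myc* alone passed in DESeq2, where 366 of 18293 genes did, and in voom, where 731 of 19749 did. Two-sided exact permutation p were 0.00909 for *Mga*, the smallest that 3 against 9 libraries allow, 0.0273 for *Myc* and 0.236 or more for the others. *Myc* also passed in edgeR without E6.5 WT 3 (-0.63, adjusted p = 0.0225).

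Within the nulls, log2 differences from E6.5 to E7.5 were 0.24 ± 0.16 for *Mycn*, 0.091 ± 0.36 for *Mycl*, -0.018 ± 0.16 for *Max* and 0.033 ± 0.17 for *Mnt*. They were -0.70 ± 0.26 for *Myc* and -0.25 ± 0.10 for *Mga*. All 6 had an adjusted p of 0.463 or more in edgeR, and the SE was largest for *Mycl*. The 3 null values of *Mga* at E7.5 lay below all 8 at E6.5, as 2.16% of genes were lower without overlap. Of the members 0 passed, as did 0.149% of all genes, and 2 had an unadjusted p under 0.05, as did 8.13%. In DESeq2 0 passed, with 2.39% of 16032 genes, and in voom 1 (*Myc*), with 4.82% of 19460. Two-sided exact permutation p were 0.0121 for *Mga*, the smallest that 3 against 8 libraries allow, 0.0242 for *Myc* and 0.097 or more for the others. Whether the step from E6.5 to E7.5 differed between genotypes was tested as an interaction over all 35 epiblast libraries. The interaction was 0.67 ± 0.22 for *Mycn* (adjusted p = 0.142), 0.98 ± 0.39 for *Mycl* (0.236), 0.81 ± 0.41 for *Myc* (0.400), 0.30 ± 0.20 for *Mnt* (0.582), 0.16 ± 0.12 for *Mga* (0.663) and 0.19 ± 0.19 for *Max* (0.808) in edgeR. No member passed, 0.290% of genes did, and 2 members had an unadjusted p under 0.05, as did 13.4% of genes. In DESeq2 0 members and 3.51% of 18456 genes passed, and in voom 3 members, the paralogs, and 11.4% of 24126 genes. Without E6.5 WT 3, *Mycn* passed (0.74, adjusted p = 0.0472), with 1.77% of genes, and without the 4 libraries that stand apart (E5.5 null 1, E6.5 null 1, E6.5 WT 3 and E7.5 WT 3) *Mycn* (0.78, adjusted p = 0.00305) and *Mycl* (1.07, adjusted p = 0.0445) passed, with 6.17% of genes.

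At E6.5 the genotypes were close. *Myc* was at 52.8 to 136 CPM (median 67.7) in 8 nulls and 48.0 to 84.1 in 9 WT, *Mycn* at 159.5 to 315 (median 269) and 182 to 376, and *Mycl* at 30.1 to 126 (median 60.2) and 45.1 to 83.0. *Max* was at 40.2 to 58.7 (median 48.2) and 44.6 to 65.9, *Mga* at 349 to 485 (median 378) and 341 to 459.9, and *Mnt* at 35.1 to 60.7 (median 47.9) and 31.3 to 58.9 CPM. The groups overlap in each gene. Log2 differences lay between -0.24 ± 0.13 (*Mycn*) and 0.13 ± 0.16 (*Myc*), and 0 of 6 members passed in edgeR, DESeq2 or voom or had an unadjusted p under 0.05. Of all genes 0% passed in edgeR, with 1414 of 17095 (8.27%) at an unadjusted p under 0.05, 72 in DESeq2 and 184 in voom. Within the libraries under 40000000 counts and within those over it, 0 members passed as well. E6.5 null 1 had extraembryonic ectoderm markers at 711 CPM against 5.58 to 34.6 in the other nulls and epiblast markers at 545 against 805 to 1248, and without it 0 members passed. Visceral endoderm markers had medians of 745 CPM in null and 154 in WT. Their part in these values was not tested.

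At E5.5, *Mnt* was at 25.1, 35.5, 39.0 and 35.3 CPM in the 4 nulls and at 45.7 and 39.9 in the 2 WT epiblasts, without overlap (log2 difference -0.33 ± 0.23, adjusted p = 0.999), as 7.51% of genes were lower without overlap. *Mycn* was at 91.1, 128, 183 and 179.8 CPM in the nulls, and E5.5 null 1 was the lowest in it (-0.35 ± 0.28). *Myc* was at 101, 39.3, 36.9 and 54.5 CPM and *Max* at 89.6, 59.1, 59.6 and 41.9, with E5.5 null 1 the highest in both, and the log2 differences from WT, 0.33 for *Myc* and 0.21 for *Max*, turned to -0.090 and -0.022 without it. *Mycl* was at 16.9, 37.7, 41.4 and 36.9 CPM (-0.24 ± 0.37) and *Mga* at 297, 303, 350.1 and 345.5 (-0.14 ± 0.12). In edgeR, DESeq2 and voom 0 of 6 members passed, none had an unadjusted p under 0.05, and 0% of all genes passed in edgeR, with 467 of 18690 (2.5%) at an unadjusted p under 0.05, 15 in DESeq2 and 0 in voom. From E5.5 to E6.5 within the nulls, *Mycn* differed by 0.76 ± 0.20 (adjusted p = 0.0512), *Mycl* by 0.93 ± 0.35 (0.157), *Mnt* by 0.51 ± 0.18 (0.138), *Myc* by 0.40 ± 0.30 (0.554), *Mga* by 0.25 ± 0.10 (0.196) and *Max* by -0.37 ± 0.19 (0.326) in edgeR. Without E5.5 null 1 the edgeR differences were 0.62 for *Mycn* (adjusted p = 0.0733), 0.84 for *Myc* (0.0916) and -0.11 for *Max* (0.850). They were 0.74 for *Mycl* (0.272), 0.42 for *Mnt* (0.241) and 0.24 for *Mga* (0.258). With all libraries kept, 3.77% of genes and 0 members passed, and 4 members had an unadjusted p under 0.05, as did 18.3% of genes. In DESeq2 1 member (*Mycn*) passed, with 10.8% of 16658 genes, and in voom 3, with 19.4% of 18352. Two-sided exact permutation p were 0.00808 for *Mga*, 0.0121 for *Mycn*, 0.0162 for *Mnt* and 0.0404 for *Mycl*, and 0.137 or more for *Myc* and *Max*, where 0.00404 is the smallest that 8 against 4 libraries allow. For E6.5 nulls against the E5.5 WT pair the log2 differences ran from -0.16 ± 0.20 (*Max*) to 0.73 ± 0.40 (*Myc*), and 0 members passed, with 0.182% of all genes, 0 members at an unadjusted p under 0.05 (9.69% of genes) or in DESeq2 (3.91% of 15059), and 1 (*Mycn*) in voom (7.61% of 20326).

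Of 7 other MAX- and MLX-binding factors, 2 rose and none fell where the MYC paralogs fell, at a step where 12.7% of all genes rose and 12.3% fell. *Mxd4* and *Mxd1*, repressors that accompany differentiation, rose in WT between E6.5 and E7.5. *Mxd4* went from 2.01 to 8.21 CPM (median 4.03) to 7.05 to 20.7 (median 17.7), a log2 change of 1.92 ± 0.26 (edgeR, adjusted p = 3.4e-05), and *Mxd1* from 3.40 to 7.26 (median 5.57) to 5.77 to 12.8 (median 8.58), a change of 0.73 ± 0.19 (adjusted p = 0.00576). The other 5 genes did not pass at this step, with log2 differences of 0.063 for *Mxd3*, -0.13 for *Mxi1*, 0.11 for *Mlx*, -0.11 for *Mlxip* and -0.25 for *Mlxipl*. At the earlier WT step 2 of the 7 passed, *Mxi1*, another MXD repressor (0.80 ± 0.20, adjusted p = 0.0248), and *Mlxip*, a glucose-responsive partner of MLX (0.55 ± 0.14, adjusted p = 0.0233), both higher at E6.5 and without overlap, as 8.28% of genes were. *Mxd3*, whose expression is tied to proliferating cells, *Mxd4*, *Mxd1*, *Mlx* and *Mlxipl* had log2 differences of -1.31, -0.88, -0.29, -0.50 and -0.98 at that step and did not pass.

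Between genotypes at E7.5, *Mxd4* was at 5.26 to 9.51 CPM in the nulls and 7.05 to 20.7 in WT, a log2 difference of -1.17 ± 0.29 (edgeR, adjusted p = 0.0512; without E7.5 WT 3, -1.27, adjusted p = 0.00105). *Mxd1* (-0.32), *Mxd3* (-0.26), *Mxi1* (0.38), *Mlx* (-0.14), *Mlxip* (0.14) and *Mlxipl* (-0.039) did not pass with or without WT 3. In every other comparison of genotypes, within the null stages, between null and younger WT, and in the interaction, 0 of these 7 passed in edgeR, with 0 to 2 at an unadjusted p under 0.05 and at most 1 in DESeq2 and 2 in voom. The largest of those log2 differences with an unadjusted p under 0.05 was that of *Mxd1* at E5.5 (1.25 ± 0.51, adjusted p = 0.999), where the nulls lay at 11.8 to 26.5 CPM and the WT epiblasts at 4.397 and 9.18, without overlap, as 4.16% of genes were higher.

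Genes known as direct MYC targets in many cell types, here 30 genes of ribosome production, chaperones and metabolism, mostly fell at the WT step where the paralogs fell. At that step the summed epiblast markers went from a mean of 1243 to 506 CPM. The part of the paralogs and of tissue makeup in the target changes, here and between genotypes, was not tested. From E6.5 to E7.5, 23 of the 30 fell and none rose (12.3% of all genes passed as lower). The median log2 change of the 30 was -0.44, and that of all genes 0.0066. *Odc1*, which makes polyamines, fell from 514 ± 42.5 to 338 ± 56.4 CPM (SD; log2 change -0.60, edgeR adjusted p = 2.2e-05). The nucleolar genes *Nolc1* (-0.50, adjusted p = 7.7e-05), *Pes1* (-0.44, 0.000141) and *Bop1* (-0.64, 0.000183) had the next smallest p. From E5.5 to E6.5, 4 of the 30 rose, as did 5.15% of all genes, *Cad* of pyrimidine synthesis (0.66, adjusted p = 0.00937), *Nop56* (0.38, 0.0121), *Ldha* (0.52, 0.0430) and *Ncl* (0.44, 0.0466), and the median was 0.28 against 0.096 over all genes.

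In E7.5 null against WT epiblasts all 30 targets had a log2 difference above 0, from 0.018 to 0.61 with a median of 0.41, against -0.020 over all genes. Of these, 6 passed as higher in null (0.767% of all genes did), among them *Nop58* (0.47, edgeR adjusted p = 0.0338), *Bop1* (0.55, 0.0371), *Pa2g4* (0.49, 0.0391) and *Odc1* (0.51, 0.0398). *Odc1* was at 460.3 to 499.5 CPM in the 3 nulls and 304 to 482 in the 9 WT epiblasts. With all libraries kept, 27 of the 30 had an unadjusted p under 0.05 in edgeR, as did 19.7% of all genes. In DESeq2 16 passed and in voom 26, where the shares of all genes are those given above with the members. Without E7.5 WT 3, 26 of the 30 passed in edgeR and the median was 0.48. In that fit 14.4% of all genes passed, 7.06% as higher. In the interaction of genotype with stage 0 of the 30 passed in edgeR, with 21 at an unadjusted p under 0.05 (13.4% of all genes), 5 in DESeq2 (3.51%) and 23 in voom (11.4%), the smallest adjusted p being those of *Nop58* (0.41, 0.0818) and *Bop1* (0.73, 0.0848). Without E7.5 WT 3, 12 of the 30 passed in the interaction, with 504 of 24008 genes (2.1%). At the E5.5 and E6.5 stages 0 of the 30 differed between genotypes in edgeR, DESeq2 or voom, with 0 and 1 at an unadjusted p under 0.05. Against E6.5 WT, the E7.5 nulls had 15 targets lower and 15 not, and 0 passed in edgeR, DESeq2 or voom or had an unadjusted p under 0.05.

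**Figure D4:**
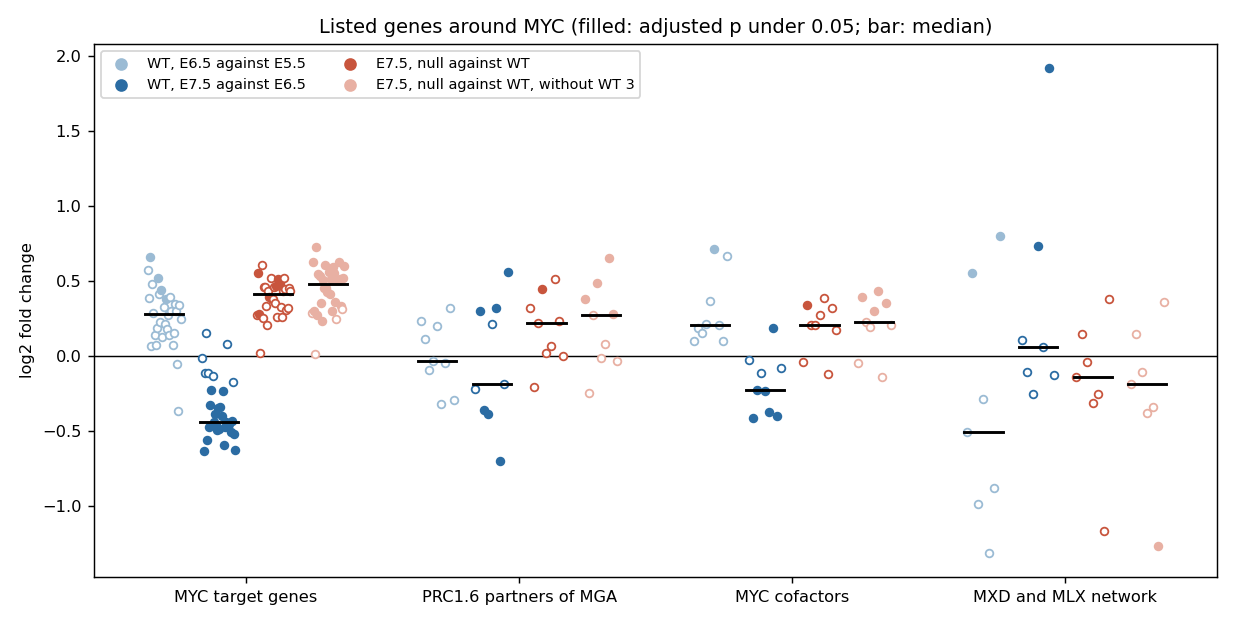
Log2 fold change of each tested gene of 4 lists (30 MYC targets, 9 PRC1.6 partners of MGA, 9 MYC cofactors and 7 MXD and MLX genes) in the 4 comparisons of the colour key; filled points have an adjusted p under 0.05 and bars are medians. The MYC targets have medians of 0.28, -0.44, 0.41 and 0.48 from left to right; all but the WT E6.5 against E5.5 comparison share E7.5 WT libraries.

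Of 9 cofactors of MYC, 5 fell and 1 rose between E6.5 and E7.5 in WT (12.3% and 12.7% of all genes). The falls were led by *Hcfc1* (-0.41, edgeR adjusted p = 2.8e-05) and *Wdr5* (-0.40, 0.000152), chromatin-bound partners of MYC, and the helicase *Ruvbl2* (-0.37, 0.000663). The scaffold *Trrap* rose (0.19, 0.00666). *Ruvbl2* rose at the earlier step (0.72, 0.00453), and *Hcfc1* was higher in E7.5 null than in WT (0.34, 0.0445). Each was the 1 cofactor of 9 to pass, where 5.15% and 0.767% of all genes passed as higher, in that order. Among genes that act on MYC protein turnover, *Usp28* and *Fbxw7* fell and *Gsk3b* rose at the WT step to E7.5, where 24.9% of all genes passed. The deubiquitinase *Usp28* fell from 152 ± 26.0 to 71.5 ± 28.7 CPM (SD; log2 change -1.08, adjusted p = 0.000211), *Fbxw7*, the ubiquitin ligase subunit that it counters, by 0.42 (0.00199), and the kinase *Gsk3b* rose by 0.26 (0.00645). *Usp28* also passed from E5.5 to E6.5, in WT (1.22, 0.0249) and in null (1.58, 0.0348).

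Of 9 subunits that join MGA in PRC1.6 or related complexes, 3 fell and 3 rose at the WT step to E7.5 (12.3% and 12.7% of all genes). *Rybp* (-0.70, edgeR adjusted p = 0.000202), *L3mbtl2* (-0.36, 0.00170) and *Pcgf6* (-0.39, 0.00617) fell with *Mga*, and *Yaf2*, the paralog of *Rybp*, rose (0.56, 0.00160). *Pcgf6* was higher in E7.5 null than in WT (0.44, 0.0483), at 55.0 to 58.7 CPM against 34.9 to 51.5. It was the 1 subunit of 9 to pass there, where 0.767% of all genes passed as higher. Of 12 germline genes known to be silenced by PRC1.6, 7 had enough counts to be tested at this WT step, having passed the filter mostly through E6.5. The filter thus favours a fall at this step, and the levels below are only a description. For that reason the number passing in edgeR is not set against the share of all genes. *Ddx4*, *Sycp3*, *Mov10l1* and *Mael* were lower at E7.5, with *Ddx4*, the germ cell RNA helicase, at 6.59 to 30.7 CPM at E6.5 and 2.08 to 5.499 at E7.5, and *Sycp3*, a meiotic axis protein, at 3.02 to 19.9 and 0.781 to 3.12. *Mov10l1* and *Mael* were at 0 in some of the E7.5 WT libraries, with medians of 0.438 and 0 CPM.

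In EpiSCs, which were prepared with another kit and RNA extraction and normalised apart, the 6 genes did not differ detectably between genotypes. *Myc* was at 119 and 125 CPM in the null and 121 and 116 in the WT lines (log2 difference 0.039, 95% interval -0.13 to 0.21), and *Mycn* at 147 and 203 and at 210.4 and 147 (-0.037, -0.72 to 0.65). *Mycl* was at 21.2 and 26.4 and at 27.6 and 23.9 CPM (-0.12, -0.45 to 0.21), *Mga* at 276 and 284 and at 271 and 279 (0.024, -0.14 to 0.19) and *Mnt* at 67.0 and 64.7 and at 63.2 and 66.1 (0.024, -0.15 to 0.20). *Max*, at 53.9 and 55.3 and at 51.3 and 51.2 CPM, did not overlap (0.088, -0.092 to 0.27, adjusted p = 0.833), as 18.8% of genes were higher without overlap. In edgeR, DESeq2 and voom 0 members passed, none had an unadjusted p under 0.05 (9.09% of genes), and 0.130% of genes passed in edgeR. Side by side with the epiblasts, *Myc* was at 43.6 CPM per kb in WT EpiSCs and 26.3 in E6.5 WT epiblasts, *Mycn* at 54.3 and 90.7, *Mycl* at 6.38 and 15.9, and *Mxd4* at 6.53 and 0.523. These levels come from separate preparations and no test was made between them.

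Over the 35 epiblast libraries, the 3 genes of 8935 with a mean of at least 10 CPM whose log2 CPM was most like that of a member are given as a description, since the libraries share stages, depth and tissue makeup. For *Myc* they were *Usp36* (Pearson's r = 0.915), *Pabpc4* (0.914) and *Urb2* (0.897). For *Mycn* they were *2610035F20Rik* (0.907), *Zic2* (0.892) and *Trim71* (0.891), and for *Mycl* *Nefl* (0.896), *Ubr7* (0.852) and *Gatad2b* (0.814). For *Mga* they were *Ankrd11* (0.915), *Sbno1* (0.908) and *Rest* (0.908), and for *Mnt* *Prps1* (0.798), *Mycn* (0.798) and *Cntn2* (0.788). *Max* had no close match, with *Ppat* (0.646), *Lpcat4* (0.645) and *Fdft1* (0.645), and without E5.5 null 1 these fell to 0.520, 0.510 and 0.585. Among the members, *Mnt* was most like *Mycn* (0.798) and *Mycl* (0.769), *Myc* was most like *Mga* (0.645), and the r of *Max* with *Mycn* was -0.16.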

How the data were processed

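Single epiblasts were read with a stranded total RNA kit for low input and EpiSC lines with another kit. The authors trimmed reads with Trim Galore, aligned them to GRCm38 with HISAT2, counted them per gene with StringTie and deposited raw counts, per the labels and the study's methods. The annotation version and strand setting used for counting are not given in the sources used here. Each pair of groups was tested in edgeR 4.0.16 (R 4.3.3; filterByExpr with a minimum count of 10 and total of 15, TMM, robust quasi-likelihood, two-sided, Benjamini-Hochberg over all genes tested). "Passed", "rose" and "fell" mean an adjusted p under 0.05. The SE is the log2 fold change over the square root of F, and 95% intervals use its t quantile. CPM use TMM library sizes, computed separately for epiblasts and EpiSCs, and levels per kb use merged exons. Epiblasts are separate embryos and EpiSC libraries separate lines. The edgeR test was tried on simulated counts of equal dispersion, without outlier libraries or mixed tissue, so it does not speak to those. Alternatives were DESeq2 1.42.0, voom of limma 3.58.1, other filters and scalings, and leaving out libraries. Transcripts were compared with blastn 2.17.0, permutation tests used scipy 1.17.1 and figures matplotlib 3.10.9. The 6 genes, the lists and the libraries that stand apart were chosen with earlier results of these data known. Named genes are the 6, *Stat3*, the 7 MXD and MLX genes, up to 4 passing genes of each list with the smallest p, and the 3 genes most like each member. Part of the list of genes of MYC protein turnover is not reported here.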

Additional observations from a re-analysis of the deposited data

Results flagged for a closer look

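Of 24 sets of values (6 genes in the 4 groups of 4 to 9 epiblasts), 4 held a library far from the others by Dixon's test at 95%, where chance alone gives about 1 in 20. E6.5 WT 3 was the lowest of its group in 3 genes, with *Myc* at 48.0 CPM (next 68.1), *Mycn* at 182 CPM (next 271) and *Mnt* at 31.3 CPM (next 44.5). The same library had visceral endoderm markers at 5164 CPM, against 45.5 to 1481 in the other E6.5 WT libraries. E5.5 null 1 was the lowest in *Mycl*, at 16.9 CPM (next 36.9), and is the library with few epiblast and many extraembryonic ectoderm transcripts. The part of those transcripts in the low values was not tested.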

How the results depend on the processing

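Of 1536 alternative values of the 6 genes, 1399 kept their direction and side of the threshold, 16 lost the call, 64 gained one and 57 changed sign, the last among differences that did not pass. In WT E7.5 against E6.5, 4 to 6 members passed under every alternative. In E7.5 null against WT, 2 members passed in DESeq2, 5 in voom, 5 without the libraries that stand apart and 0 to 5 with each library left out in turn, the 5 being without E7.5 WT 3. In WT E6.5 against E5.5, 2 passed in DESeq2 and in voom, 0 with RLE size factors, a mean count of 50, no genes over 1% of counts or all 35 libraries in 1 fit, and 0 to 1 with a library left out. In null E6.5 against E5.5, 1 passed in DESeq2, with RLE, with no filter and with a mean count of 50, 3 in voom and in the fit of all 35, and 0 to 1 with a library left out. In null E7.5 against E6.5 and in E6.5 null against E5.5 WT, 1 passed in voom. In E7.5 null against E6.5 WT, 1 passed in DESeq2, in voom and without the libraries that stand apart, and 0 to 1 with a library left out. In the interaction, 3 passed in voom, 2 without the libraries that stand apart and 0 to 1 with a library left out. The causes were not tested.

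Signs changed in voom for *Max* at E5.5 (-0.010) and in WT E6.5 against E5.5 (0.022), for *Myc* (-0.11), *Mycl* (-0.16) and *Mnt* (-0.041) at E6.5 and for *Mnt* in E7.5 null against E6.5 WT (-0.00975). They changed without the libraries that stand apart for *Myc* (-0.090) and *Max* (-0.022) at E5.5, *Mnt* at E6.5 (-0.017), *Mycl* in null E7.5 against E6.5 (-0.013) and *Mnt* in E7.5 null against E6.5 WT (-0.014). At E6.5 they changed under 40000000 counts for *Myc* (-0.15), *Mycl* (-0.092) and *Mnt* (-0.024), over 40000000 for *Mga* (-0.00059), and in the permutation test's means for *Mycl* (-0.090). For *Mycn* in E7.5 null against E6.5 WT they changed in the fit of all 35 (0.00354) and the permutation test's means (0.00943). With a library left out, null against WT ran from -0.25 to 1.34 (*Myc*), -0.48 to 0.058 (*Mycl*) and -0.022 to 0.37 (*Max*) at E5.5, from -0.037 to 0.20 (*Myc*), -0.21 to 0.12 (*Mycl*), -0.012 to 0.076 (*Mga*) and -0.039 to 0.078 (*Mnt*) at E6.5, and from -0.28 to 0.25 (*Mycn*), -0.28 to 0.038 (*Mycl*) and -0.00092 to 0.054 (*Mnt*) in EpiSCs. Null E7.5 against E6.5 ran from -0.070 to 0.033 (*Max*), -0.025 to 0.094 (*Mnt*) and -0.12 to 0.35 (*Mycl*), and E7.5 null against E6.5 WT from -0.014 to 0.091 (*Mnt*), -0.13 to 0.36 (*Mycl*) and -0.076 to 0.036 (*Mycn*).

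Whether replicate numbers pair the epiblasts could not be decided, because differently numbered libraries were not compared in the same way. Same-numbered null and WT libraries correlated, in their deviations from group means, at 0.0897 to 0.319 at E5.5. The values were -0.11 to 0.338 at E6.5 and -0.39 to 0.126 at E7.5. The 3 deepest E6.5 libraries of each genotype carried the same numbers. With the replicate block 0 members passed in WT E6.5 against E5.5, and *Mycl* at E6.5 (-0.084), *Max* in null E7.5 against E6.5 (0.081) and *Mycn* in E7.5 null against E6.5 WT (0.16) changed sign. The block took the genes passing from 416 to 0 in E7.5 null against WT, from 692 to 2 in null E6.5 against E5.5 and from 1919 to 101 in WT E6.5 against E5.5. For the EpiSC lines alone, no paired analysis was possible because they share no replicate numbers.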
